A study of Mus musculus with 3 samples.

Results

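The genes of the C/EBP family (CCAAT/enhancer-binding proteins) were examined in scratched primary fibroblasts of the mouse under combined treatment with soluble micrograft (MG) and PD0325901. Members were taken by gene name, namely Cebpa, Cebpb, Cebpd, Cebpe, Cebpg, Cebpz and Ddit3, and all 7 names were found among the 43472 rows of the table. The 3 libraries are replicates 1, 2 and 3 of a single group, and the labels do not say which animal or culture gave each. The fibroblasts came from the tail tips of C57BL/6 mice, were wounded by a scratch and were kept for 5 h with the MG, a cell-free extract of minced mouse skin, and with PD0325901, an inhibitor of the kinase MEK, which activates ERK. All 3 libraries therefore carry the wound, the MG and the inhibitor. No library without the MG or the inhibitor was analysed here, hence every comparison is between replicates or between genes and none is between conditions. Any p-value thus measures counting error between libraries or the spread over these samples.

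C/EBP proteins are transcription factors that bind DNA as pairs through a basic region and a leucine zipper. C/EBPβ and C/EBPδ are induced by cytokines such as IL-6 and IL-1 and switch on acute phase and inflammatory genes in fibroblasts, and C/EBPβ is among the substrates of ERK. C/EBPα is best known from fat, liver and myeloid cells, and C/EBPε from granulocytes. C/EBPγ lacks an activating domain and acts through its partners, among them ATF4, while CHOP, the product of Ddit3, is made in the stress response downstream of ATF4. Cebpz carries the family name but encodes a protein without a leucine zipper that is related to the Noc factors of ribosome assembly.

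Libraries held between 17.2 M and 27.0 M reads on genes, and replicate 2 was the deepest. Values are normalized counts, that is, reads divided by 1 size factor per library. The limit that 0 reads allow, 3 reads, equalled between 2.11 and 3.56 normalized counts and covers counting error only. Replicate 2 stood apart from the others across the transcriptome. More than 2-fold above both other libraries there were 5.2% of 13154 genes with a mean of at least 10 normalized counts, and 4.87% were more than 2-fold below both. The same shares were 2.29% and 1.97% for replicate 1, and 1.28% and 2.3% for replicate 3. The fibroblast label was borne out by the highest of 8 fibroblast genes, Col1a1, Col1a2, Col3a1 and Vim, whose lowest value in any library was 26077 normalized counts. The whole list of 8 was detected, and Pdgfra had the lowest mean, 260 normalized counts. Dcn and Lum were more than 2-fold below both others in replicate 2. Lum, with 5073, 289 and 1164 in replicates 1, 2 and 3, was also more than 2-fold above both others in replicate 1.

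Of the 7 genes, 6 reached 10 normalized counts in each of the libraries, a level here called detected, and Cebpe did not. Cebpd and Cebpb, the cytokine-induced members, were abundant in replicates 1 and 3 and several-fold lower in replicate 2. Cebpg, Ddit3 and Cebpz were abundant in all libraries, with a spread near the middle of that of detected genes. Cebpa was low throughout.

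**Figure D1:**
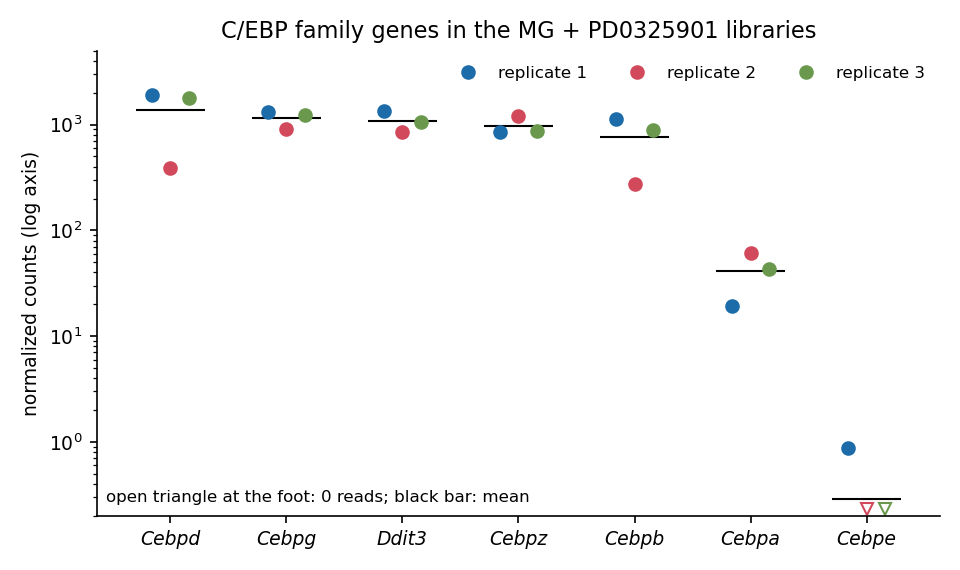
Normalized counts (log axis) of the 7 C/EBP family genes, 1 point per library, with the mean of the 3 libraries as a black bar and 0 reads drawn as an open triangle at the foot of the axis. The point of replicate 2 lies far below the others for Cebpd (392 normalized counts) and Cebpb (272), while the points of Cebpg, Ddit3 and Cebpz lie close together.

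Cebpb (chromosome 2, 167688915 to 167690418, plus strand, GRCm38), a gene of 1 exon, encodes C/EBPβ, whose activating and shortened forms are made from the same mRNA and cannot be told apart by reads on the gene. It had 1137, 272 and 897 normalized counts across replicates 1, 2 and 3, and averaged 769 ± 446 (SD, n = 3). Replicates 1 and 3 lay close together and replicate 2 was far below both. From lowest to highest the libraries spanned 4.18-fold, a wider range than in 96.2% of the 12204 detected genes. Counting error in replicate 2, with 386 reads, was 5.09%. Replicate 2 was 4.17-fold below replicate 1 and 3.29-fold below replicate 3 on the scale of normalized counts with a pseudocount of 1 (two-sided exact binomial test on reads, Benjamini-Hochberg adjusted over all genes, p = 1.13e-161 and 1.25e-85). Such tests compare libraries and cover counting error only.

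Cebpd (chromosome 16, 15887286 to 15891031, plus strand), also of 1 exon, encodes C/EBPδ. It had 1927, 392 and 1767 normalized counts across replicates 1, 2 and 3, and averaged 1362 ± 844 (SD, n = 3). The pattern was that of Cebpb, with replicate 2 alone low. The range was 4.91-fold, wider than in 97.3% of detected genes. Replicate 2 was 4.90-fold below replicate 1 and 4.49-fold below replicate 3 (adjusted p = 1.52e-313 and 1.84e-231, exact binomial test), while replicates 1 and 3 differed by 1.09-fold for Cebpd and by 1.27-fold for Cebpb. For both genes the wide range was thus that of replicate 2 against the others.

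Cebpg (chromosome 7, 35046422 to 35056573, minus strand), the gene of C/EBPγ, had 1319, 905 and 1229 normalized counts across replicates 1, 2 and 3, and averaged 1151 ± 218 (SD, n = 3). Ddit3 (chromosome 10, 127290774 to 127296288, plus strand), the gene of CHOP, had 1346, 845 and 1066, on average 1085 ± 251 (SD, n = 3). Both were lowest in replicate 2, by 1.46-fold and 1.59-fold from the highest. These ranges were near the middle of the transcriptome, above those of 47.0% and 59.2% of detected genes. Cebpz (chromosome 17, 78919006 to 78937066, minus strand) went the other way, with 843, 1194 and 869 normalized counts, on average 969 ± 196 (SD, n = 3). It was highest in replicate 2, with a range of 1.42-fold.

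Cebpa (chromosome 7, 35119293 to 35121928, plus strand), the gene of C/EBPα, had 19.1, 61.3 and 42.7 normalized counts across replicates 1, 2 and 3, and averaged 41.0 ± 21.1 (SD, n = 3). These rested on 22, 87 and 36 reads, and counting error in replicate 1 was 21.3%. Replicate 1 was the low library and replicate 2 the high one, so the order differed from that of Cebpb and Cebpd. The difference between replicates 2 and 3, 1.43-fold, did not pass the exact binomial test (adjusted p = 0.115). Only 7.79% of detected genes had a lower mean. Cebpe (chromosome 14, 54710360 to 54712174, minus strand) had 1 read in replicate 1 and 0 reads in replicates 2 and 3, below the limit that a count of 0 allows in each library, and was not tested further.

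Of the 6 members tested, 3 differed by more than 2-fold and passed the exact binomial test between replicates 2 and 1, against 19.8% of all genes tested. These were Cebpb and Cebpd, lower in replicate 2 as were 10.6% of all genes, and Cebpa, higher there as were 9.27%. Between replicates 2 and 3 the members called were Cebpb and Cebpd, 2 of 6, against 16.1% of all genes, of which 6.88% were lower and 9.2% higher in replicate 2. Between replicates 1 and 3 it was Cebpa alone, 2.17-fold lower in replicate 1 (adjusted p = 0.009, exact binomial test), against 8.78% of all genes, of which 3.41% were lower and 5.37% higher in replicate 1. With no fold required, 6, 5 and 4 members passed in these pairs, against 68.4%, 62% and 51.1% of all genes, so that most genes passed the test alone. More than 2-fold from both other libraries were Cebpb and Cebpd, below in replicate 2, and Cebpa, below in replicate 1. The latter was no longer apart with a pseudocount of 10.

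**Figure D2:**
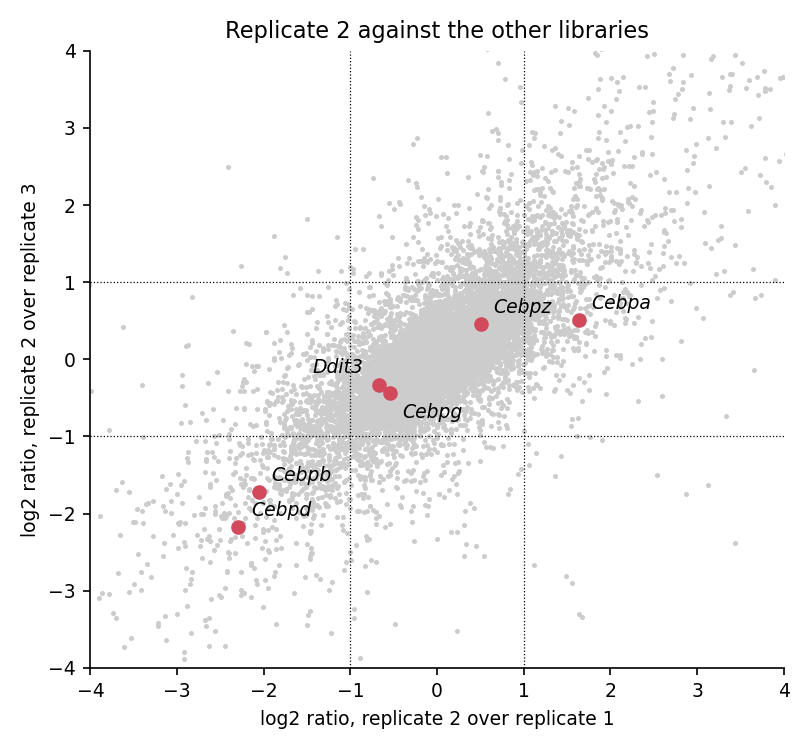
Log2 ratio of replicate 2 over replicate 1 (horizontal) and over replicate 3 (vertical) for genes with a mean of at least 10 normalized counts, in grey, and the 6 C/EBP genes that pass this minimum, in red, with dotted lines at 2-fold and 120 of 13153 genes outside the axes. Cebpb and Cebpd lie past both lines at the lower left, while Cebpg, Ddit3 and Cebpz lie within the bulk of all genes.

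Promoters were compared for the members that differed in spread. Of the 7 genes, 4 matched a promoter in the RefSeq table (GRCm38.p6), which gives Cebpa, Cebpb, Cebpg and Ddit3. Shown are the 250 bases before the annotated start of Cebpb, which was low in replicate 2, and of Ddit3 and Cebpg, which were not apart in any library. The start is that of RefSeq, which for Ddit3 and Cebpg lies a few bases inside the gene as given above from GENCODE. Each reads 5′ to 3′ on the strand of the gene, with motif matches in capitals, from chr2:167688665-167688914 for Cebpb, chr10:127290543-127290792 for Ddit3 and chr7:35056567-35056816 for Cebpg.
Cebpb: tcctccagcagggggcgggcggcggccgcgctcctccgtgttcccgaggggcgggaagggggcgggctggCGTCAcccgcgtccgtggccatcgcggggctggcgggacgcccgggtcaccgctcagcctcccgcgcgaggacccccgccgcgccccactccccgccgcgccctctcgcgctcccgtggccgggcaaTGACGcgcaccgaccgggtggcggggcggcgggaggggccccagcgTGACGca
Ddit3: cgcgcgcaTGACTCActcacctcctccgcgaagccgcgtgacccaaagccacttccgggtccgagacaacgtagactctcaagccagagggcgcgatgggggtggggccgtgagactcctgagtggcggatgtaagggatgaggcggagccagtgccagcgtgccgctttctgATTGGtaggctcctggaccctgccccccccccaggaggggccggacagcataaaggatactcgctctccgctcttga
Cebpg: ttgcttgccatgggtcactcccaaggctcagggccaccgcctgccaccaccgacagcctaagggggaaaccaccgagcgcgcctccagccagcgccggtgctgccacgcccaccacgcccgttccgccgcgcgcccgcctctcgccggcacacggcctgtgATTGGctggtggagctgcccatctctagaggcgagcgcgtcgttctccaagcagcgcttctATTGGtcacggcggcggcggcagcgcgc
Motifs were searched on both strands as TTGCNNAA for a C/EBP site, TGATGNAA for a C/EBP-ATF element, TGACG for the core of a cyclic AMP response element, TGANTCA for an AP-1 site, CCAAT and TATAAA. The Cebpb promoter held TGACG 3 times, from positions -180, -53 and -7 counted from the start, the first of them on the opposite strand. This motif occurs in 17.8% of the 32851 promoters. In the Ddit3 promoter the match was TGACTCA, an AP-1 site, from position -242, a motif held by 6.75% of promoters, and CCAAT on the opposite strand. The Cebpg promoter held CCAAT on the opposite strand 2 times, a motif of 33.8% of promoters. In Cebpa only TATAAA matched, from position -30, as in 12.4% of promoters. TTGCNNAA, in 9.56% of promoters, and TGATGNAA, in 3.45%, were in none of the 4 windows. A match is a string of letters in these windows and was not tied to binding by any measurement here.

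Longer transcripts collect more reads, so levels of different genes were compared as normalized counts per kb of exon. On this scale Ddit3 had the highest mean, 634 ± 147 (SD, n = 3), followed by Cebpb with 511 ± 297, Cebpd with 364 ± 225, Cebpz with 208 ± 42.0, Cebpg with 205 ± 38.7, Cebpa with 15.6 ± 8.02 and Cebpe with 0.233 ± 0.404. Of all detected genes with a length, 86.9% had a lower mean per kb than Ddit3 and 12.0% a lower one than Cebpa. Ddit3 and Cebpb were nearly level in replicates 1 and 3, where Ddit3 was 1.04-fold higher per kb in each, but 2.73-fold apart in replicate 2. Cebpb was above Cebpd per kb in every library, by 1.47-fold, 1.73-fold and 1.26-fold in replicates 1, 2 and 3. Before division by length Cebpd was the higher in every library, so this order rests on the annotated lengths, 1504 and 3746 bases. For both genes the longest transcript was as long as all exons together. Each of these orders per kb held in 3 of 3 libraries. For such an order the two-sided exact sign-flip permutation test gives p = 0.25, the smallest that 3 libraries allow. The pairs were taken from the ranking in these same libraries, so the test lends the orders no support. Counting error of Ddit3 alone was 3.34% in replicate 3, with 899 reads, and a 1.04-fold difference is near it.

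Cebpd and Cebpz did not keep their order. Cebpd was 2.84-fold and 2.53-fold higher per kb in replicates 1 and 3, and Cebpz was the higher in replicate 2, with 256 against 105. Cebpz and Cebpg lay within the replicate spread of each other, with a mean log2 ratio of 0.02 ± 0.57 (SD, n = 3). Cebpg stood above Cebpa in every library by at least 6.93-fold per kb. For Ddit3, 1713 bases of exon were annotated in all and 969 in its longest transcript, and with the latter its mean was 1120 ± 259 normalized counts per kb (SD, n = 3), also the highest of the family.

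The sum of the 7 genes per kb was 2479 in replicate 1, 1220 in replicate 2 and 2112 in replicate 3. Replicate 2 had the lowest sum. In the others Cebpb and Cebpd made up about as much as all other members together, Cebpb with 30.5% and 28.3% and Cebpd with 20.7% and 22.3% in replicates 1 and 3. In replicate 2 the share of Cebpb was 14.8% and that of Cebpd 8.59%. Ddit3 took 31.7%, 40.4% and 29.5% in replicates 1, 2 and 3, while Cebpz took 7.30% and 8.83% in replicates 1 and 3 and its largest share in replicate 2. Cebpg took 9.46%, 13.2% and 10.4%.

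**Figure D3:**
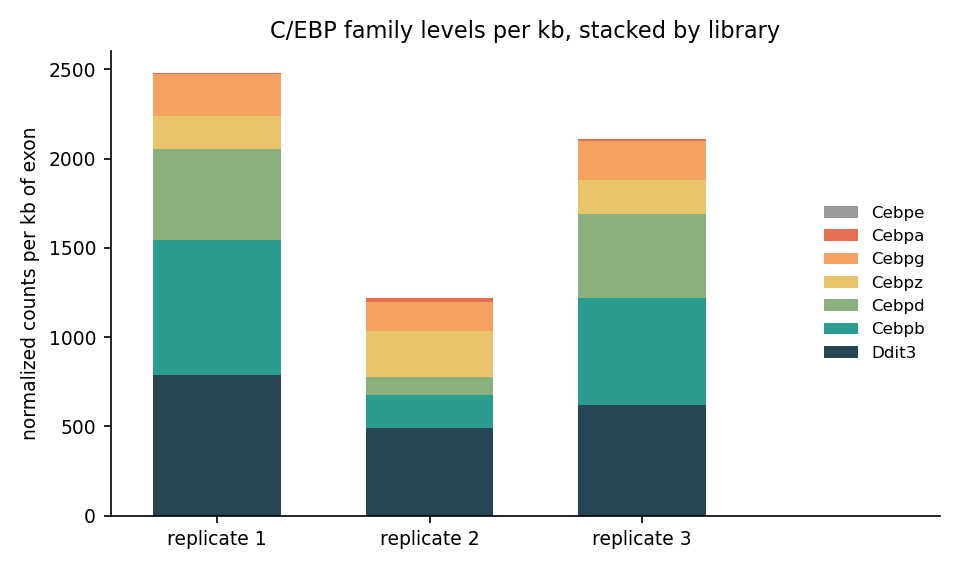
Normalized counts per kb of exon of the 7 C/EBP family genes, stacked for each library. Replicate 2 has the lowest sum (1220 per kb), with thin segments for Cebpb and Cebpd and the widest segment for Ddit3.

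The likeness of the members' patterns over the libraries was measured as the Euclidean distance between log2 values centred on each gene's mean. The nearest were Cebpg and Ddit3, at 0.166, followed by Cebpb and Cebpd, at 0.318, and the farthest were Cebpa and Cebpd, at 2.84. The ratio of Ddit3 to Cebpg per kb was accordingly steady, 3.35, 3.06 and 2.84 in replicates 1, 2 and 3. With 3 libraries such distances are a description. A pattern like that of Cebpg was common, as 10.3% of 9990 genes with a mean of at least 100 normalized counts lay within 0.2 of it, and so were those of Cebpz (10.8%) and Ddit3 (7.32%). Few genes lay within 0.2 of Cebpb and Cebpd, 16 and 9, and 23 genes lay this near to Cebpa. The distance was not scaled by the range of a gene, so these counts also reflect how wide the ranges were.

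The genes nearest to Cebpb were Gadd45a at a distance of 0.0649, with 801, 203 and 665 normalized counts in replicates 1, 2 and 3, Pgbd5 at 0.0682 and Cd40, the gene of a TNF receptor family member, at 0.0860. Nearest to Cebpd were Mgll, which encodes monoglyceride lipase, at 0.120, with 1005, 211 and 1032 normalized counts, Sfn at 0.137 and the cationic amino acid transporter gene Slc7a2 at 0.148. All 6 were lowest in replicate 2, which follows from how they were chosen. Nearest to Cebpa were Adamts6 at 0.0123, Dnmbp at 0.0812 and Xpo5 at 0.0907. Those nearest to Cebpg were Trim68, Adipor1 and Tmem41a, to Cebpz Arl13b, Nr2c2 and Ttc27, and to Ddit3 Polr2k, Smim14 and Phf1, all within 0.0101 of the member.

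The stress response around Ddit3 and Cebpg was read from a list of 16 genes, all detected. It was chosen with earlier results of these data known, so its shares are a description and no test. Atf4, the transcription factor that pairs with C/EBPγ and drives Ddit3, had the highest level of the list, with 11097, 7302 and 9330 normalized counts in replicates 1, 2 and 3. Like Ddit3 and Cebpg it was lowest in replicate 2, by 1.52-fold from the highest. In replicate 2, 10 of the 16 genes had their lowest value, against 37.6% of all genes with a mean of at least 10. More than 2-fold below both others there were 2 genes, against 4.87% of all genes, and none was above. These were Trib3, a pseudokinase gene induced by CHOP, with 927, 382 and 1294 normalized counts, and Atf3, a stress-induced transcription factor gene, with 225, 64.8 and 149. The median log2 difference of replicate 2 from the mean of the others was -0.23 over this list and 0.02 over all genes. The kinases that start the response, Eif2ak1, Eif2ak2, Eif2ak3 and Eif2ak4, were lowest in replicate 1, where Eif2ak4 had 287 normalized counts, against 529 and 378 in replicates 2 and 3.

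Inflammatory genes known as C/EBPβ and C/EBPδ targets were mostly lowest in replicate 2, which held for 10 of 13 genes, against 37.6% of all genes with a mean of at least 10. All 13 genes of the list were detected, and Ptgs2, the gene of cyclooxygenase-2, had the highest level, with 55003, 44099 and 54200.1 normalized counts across replicates 1, 2 and 3. In replicate 2, 4 of 13 were more than 2-fold below both others, against 4.87% of all genes, and none was above. Csf3, the gene of the granulocyte growth factor G-CSF, had 1096, 216 and 552 normalized counts. The chemokine genes Cxcl5 and Ccl2 had 43204, 12852 and 37788 and 37108, 11740 and 35007.0. Nos2, the inducible nitric oxide synthase gene, had 3972, 1543 and 5814. The median log2 difference of replicate 2 was -0.85 over the list. As the list was chosen with earlier results of these data known, these shares are a description and no test.

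The other 3 of the 13 targets were lowest in replicate 1. Il6, itself a classic target of C/EBPβ, had 788, 1430 and 1491 normalized counts across replicates 1, 2 and 3 and was lowest in replicate 1. Hp, the gene of the acute phase protein haptoglobin, had 41.7, 82.4 and 79.4. The third was Lcn2, with 255, 256 and 519, nearly level in replicates 1 and 2. Lcn2 and the complement gene C3, with 782, 712 and 2113, were more than 2-fold above both others in replicate 3, as were 1.28% of all genes. With 1 group of 3 libraries, a relation between the level of a factor and that of its targets could not be tested.

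**Figure D4:**
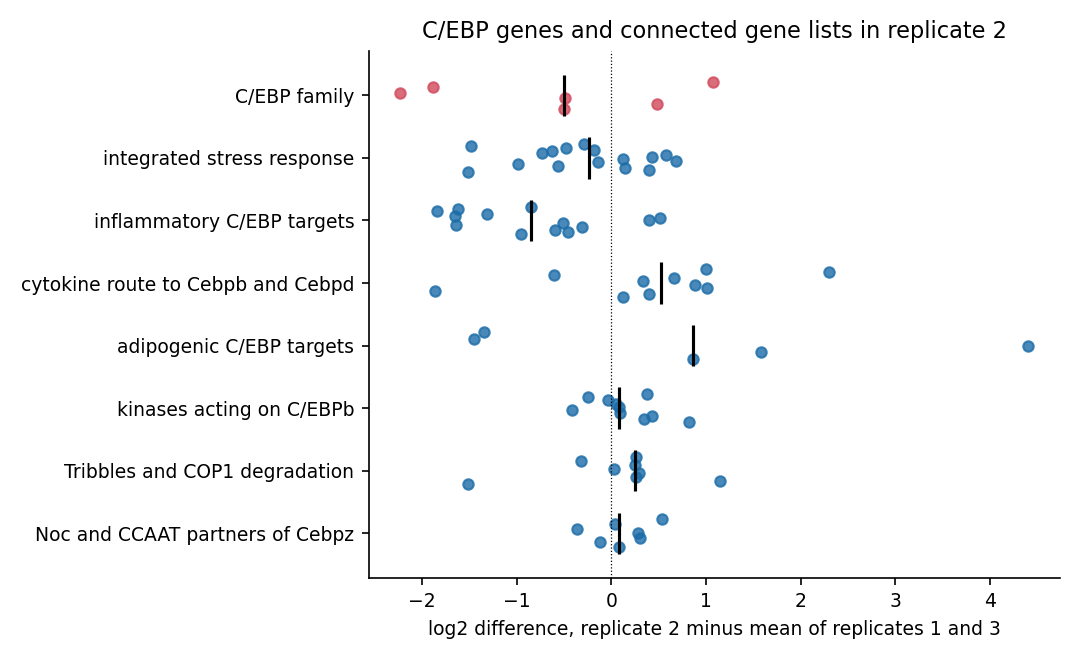
Log2 difference of replicate 2 from the mean of replicates 1 and 3, 1 point per gene with a mean of at least 10 normalized counts, for the C/EBP family and 7 connected gene lists, with the median of each list as a black bar. Of the lists drawn, which leave out the granulocyte list with its 1 gene at this mean, the inflammatory targets have the lowest median (-0.85), and the kinases and the Cebpz partners lie around 0.

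The receptors and relays of the cytokine route to Cebpb and Cebpd were for the most part not lowest in replicate 2. Of 10 genes, Il6st, the shared receptor chain gp130, had the highest mean, with 6005, 4848 and 9128 normalized counts in replicates 1, 2 and 3. The median log2 difference of replicate 2 was 0.53 over the list, and replicate 2 was the lowest library for 2 of 10 genes. Stat3, the transcription factor that activates Cebpd, had 3377, 4984 and 4233 normalized counts. Il1r1 had 735, 1309 and 584. The genes lowest in replicate 2 were Il6st and Socs3, a feedback inhibitor gene induced by STAT3, with 625, 225 and 1073, more than 2-fold below both others there. Il6ra was more than 2-fold above both others in replicate 2, with 6.08, 59.2 and 20.1, and below both in replicate 1. Lifr was below both in replicate 3, with 64.3, 74.7 and 24.9. The values of Il6ra, a gene that did not count as detected, rested on 7, 84 and 17 reads. The lowest value of Lifr rested on 21 reads. Of all genes, 5.2% were above and 4.87% below both others in replicate 2. In replicates 1 and 3, 1.97% and 2.3% were below both.

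Of genes of kinases that phosphorylate C/EBPβ, all 10 were detected and none was more than 2-fold from both others in any library. Of all genes, 4.87% were below and 5.2% above in replicate 2, 1.97% and 2.29% in replicate 1, and 2.3% and 1.28% in replicate 3. With shares this small, none of 10 is near that of all genes. The median range of the kinase genes was 1.29-fold, against 1.49-fold over all detected genes. The narrowest was that of Gsk3b, a GSK3 family gene, with 1538, 1616 and 1581 normalized counts across replicates 1, 2 and 3, and the widest that of the RSK family gene Rps6ka3, with 736, 1321 and 763. These are transcript levels and say nothing of kinase activity under PD0325901. In the list of Tribbles and COP1 genes, some of which direct the degradation of C/EBPα, 8 of 8 were detected. Ddb1 was the most abundant with 16666 ± 2706 normalized counts (SD, n = 3). Trib2 had 129, 283 and 126, more than 2-fold above both others in replicate 2, while Trib3, also of the stress list, was below. Trib1 had 357, 481 and 454. The partners of Cebpz, Noc and NF-Y genes, were all 7 detected and none was apart, which is likewise near the share of all genes. Noc2l, the highest, had 1535, 1955 and 1683 normalized counts, with replicate 2 the highest library as for Cebpz.

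Fat cell genes that C/EBPα and PPARγ activate were mostly low. Of 10 genes, 4 were detected, and Lep and Cidec had 0 reads in every library. Scd1, a fatty acid desaturase gene with the highest mean, had 2659, 5118 and 2961 normalized counts in replicates 1, 2 and 3. Pparg had 36.5, 83.1 and 20.1, more than 2-fold above both others in replicate 2, and so was the lipoprotein lipase gene Lpl with 10.4, 432 and 35.6, which was also below both in replicate 1. Fabp4 had 2185, 376 and 422, more than 2-fold above both others in replicate 1, where Cebpa was lowest. Klf15 had 21.7, 8.46 and 28.4, below both in replicate 2. Only 5 genes of the list had a mean of at least 10. Of all genes with such a mean, 5.2% were above and 4.87% below both others in replicate 2, and 2.29% and 1.97% in replicate 1. The lowest values of Lpl, Pparg and Klf15 rested on 12, 17 and 12 reads. Of the granulocyte list, which holds Cebpe, 1 of 10 was detected. This was Camp, with 77.3, 18.3 and 40.3 normalized counts, while Mpo, Prtn3, Ltf, Ngp and S100a9 had 0 reads in every library.

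Markers of other cell types were given beside the members, as Cebpa and Cebpe are also made in fat and myeloid cells. The sum of the 5 adipocyte markers was 3.47, 0.705 and 0 normalized counts in replicates 1, 2 and 3, with Cidec, Lep and Cfd at 0 reads throughout. The sum of the 7 leukocyte markers was 142, 78.9 and 678, of which Lyz2 gave 123, 62.7 and 601. Keratinocyte markers summed to 87.7, 43.0 and 45.0, most of it Krt10, with Krt1 and Krt15 at 0 reads. Endothelial markers summed to 90.3, 244 and 55.7, of which Tek gave 6.95, 185 and 2.37. Of the other leukocyte markers, Laptm5 had 1.74, 4.93 and 36.7 and Tyrobp 0, 2.11 and 15.4. Itgam had 0, 2.11 and 8.30 and Cd52 0.868, 0.705 and 9.48, with 7 and 8 reads in replicate 3. These genes and Lyz2 were all highest in replicate 3. Lyz2 and Laptm5 were more than 2-fold above both others there, as were 1.28% of all genes. Laptm5, Tyrobp and Itgam were lowest in replicate 1. Ptprc, with 1.74, 0.705 and 1.19, and Cd74, with 14.8, 5.64 and 5.93, were instead highest in replicate 1. Cd52 was lowest in replicate 2, as was Lyz2. Laptm5 and Tyrobp rested on 2 and 0 reads in replicate 1. The part of other cells in the differences was not tested, and more cells of a type and more RNA per cell cannot be told apart in bulk samples.

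The annotated spans of some members overlap those of other genes. Although the library kit marks strand, the sources used here do not give the setting used in counting. Cebpb overlaps Tmem189 on the opposite strand, which had 2165, 1209 and 2067 normalized counts across replicates 1, 2 and 3 and was also lowest in replicate 2. Cebpd overlaps Spidr, with 278, 352 and 373, which was not lowest there. Cebpz overlaps Cebpzos, with 424, 223 and 226, and Ddit3 overlaps Mars, with 1387, 1831 and 2270. The start of Cebpz lies 70 bases from that of Ndufaf7, with 377, 404 and 346 normalized counts. Spans were compared from start to end, and whether exons overlap was not examined. If strand was ignored, reads in any shared exon could not be told apart. The name Ddit3 also belongs to a second, short annotated gene of 105 exon bases inside the first, and the table gave 1 row for the name.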

How the data were processed

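RNA-seq covered 3 libraries of scratched mouse fibroblasts after 5 h of MG plus PD0325901. A further 3 columns of per-sample values could not be assigned to a sample and were not used. Stranded single-end libraries were aligned by the authors to mm10 using TopHat, uniquely mapped reads were kept, and HTSeq gave read counts for each gene. The gene annotation and strand setting are not given in the sources used here. The deposited values are a signal, namely counts that DESeq divided by 1 size factor per library. Within 0.001 reads, 100% of values in every library equalled a whole number of reads. The recovered reads summed to 22540518, 27037783 and 17244505 in replicates 1, 2 and 3, and 20322 genes had reads.

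Means and SDs were taken on normalized counts, and log2 values used a pseudocount of 1. Detection required 10 normalized counts in all libraries. A gene was apart in a replicate when more than 2-fold from both others, if its mean reached 10. Library pairs were tested on reads by a two-sided exact binomial test (doubled tail) for genes with 10 or more reads in both together, Benjamini-Hochberg adjusted at 0.05. The pair comparison was tested on simulated data. Positions and exon lengths came from GENCODE M21 (GRCm38), whose build is the authors' mm10. TMM factors came from edgeR 4.0.16 in R 4.3.3, the rest from Python 3.11.15 with scipy 1.17.1.

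Named genes were all members, genes overlapping a member or starting within 1 kb of its start, the highest gene of each list and up to 4 apart in a replicate, and the 3 genes nearest in pattern to each detected member. Values beyond this rule (Il6, Hp, Stat3, Il1r1, Gsk3b, Rps6ka3, Trib1, Laptm5, Tyrobp, Itgam, Ptprc, Cd74, Cd52, the Eif2ak genes, Col1a2, Col3a1, Vim and Pdgfra) were chosen after they were seen. A gene that the rule would name is not reported here. The members and lists were chosen with earlier results of these data known.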

Additional observations from a re-analysis of the deposited data

How the results depend on the processing

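No paired analysis was possible because only 1 group was mapped. The number of members detected was 6 with equal totals, with TMM factors and without any 1 replicate. None of the 35 recomputed mean levels moved by more than 1 SD, though leaving out 1 of 3 values could not move a mean that far. Without division by length, 3 of 7 members kept their rank, with Cebpd then ahead of all others and Cebpb behind Cebpz, which follows from their lengths, and 5 did with the longest transcript. Without each replicate 5 to 7 members kept theirs, Cebpg and Cebpz changing places without replicate 2. Requiring no fold raised the members called by construction, giving 6 when replicate 2 was set against replicate 1, 5 against replicate 3, and 4 between the remaining pair. Under equal totals, chosen after the data were seen, the log2 ratio of Cebpz for replicate 1 over replicate 3 became 0.019 from -0.04, and neither passed the test. Cebpa was apart in replicate 1 in 0 cases with a pseudocount of 10 or a mean of at least 100, the latter because its mean is lower. Cebpb and Cebpd were apart in replicate 2 in all 6 settings. Of 82 genes in the connected lists, 69 had a mean of at least 10, and 3, 13 and 3 of these were apart in replicates 1, 2 and 3, beside 560, 1325 and 471 of all 13154 genes. At 1.5-fold these became 11, 23 and 9, beside 1547, 3014 and 1160, and without a minimum replicate 1 had 6, as more genes qualify. Depth limited Cebpe and Cebpa, the latter with 22 reads in replicate 1.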
